A study of Canis lupus familiaris with 32 samples.

Results

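The genes ENSCAFG00000005854 and ENSCAFG00000015054 were followed through the hip soft tissues of dogs, as 2 of the 24580 genes listed by Ensembl identifier. They were chosen from the comparison of hip joint capsule between young dogs under 1 month of age and adult control dogs, where they had the lowest fitted log2 fold changes of the 12589 genes tested. Their levels in young and control capsules are therefore a description, and no test of that difference is given. The reference table used here paired 0 of the identifiers with a symbol, so neither gene is named and no role is given for it. For the same reason the lists of cell type markers could not be applied, and the labelled tissues were not checked against markers.

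The series holds 32 RNA libraries from 25 dogs, collected to study hip dysplasia as it arises in dogs, a disorder in which the femoral head sits loosely in its socket. Capsules came from 5 adult control dogs, from 4 affected dogs (1 adult and 3 aged 4 months) and from 6 young dogs under 1 month. Teres ligaments came from 3 adult control dogs, from 7 affected dogs (4 adults and 3 aged 4 months) and from 4 young dogs under 1 month. The remaining 3 libraries came from whole embryonic hip, so embryos differ from the other groups in tissue as well as in age. Paired capsule and ligament libraries exist for 7 of the 25 dogs. The labels used here state no age in months for adults and no sex or breed, and the control dogs were all adult.

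The hip joint capsule is a fibrous sleeve lined by synovium, and it holds fibroblasts, vessels, nerves and, in places, fat. The teres ligament is a band of dense collagen, with a synovial cover, that joins the femoral head to the acetabulum. After birth both tissues mature from cell-rich tissue that is laying down matrix towards tissue with fewer dividing cells. In RNA from whole tissue, fewer cells of a type and less RNA per cell cannot be told apart.

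Library totals ran from 2857235 to 9895143 fragments. At this depth 1 fragment was worth 0.118 to 0.331 CPM (fragment counts normalised to library size, scaled over all 32 libraries), so levels near 1 CPM rest on a few fragments. The 10 most abundant genes held 12% to 33% of fragments across the libraries.

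In adult control capsules ENSCAFG00000005854 lay at 18.7, 9.05, 89.1, 90 and 33.6 CPM in replicates 1 to 5. Its mean was 48.1 ± 38.9 CPM (SD, n = 5), on 46 to 448 fragments per library. The 6 young capsules ran from 0 to 1.04 CPM, with a median of 0.656 and at most 5 fragments in a library. All young capsules lay below all control capsules, which 9.41% of the 12589 genes also showed. Young replicate 4 had 0 fragments, which allows up to 0.683 CPM (3 fragments, counting error only). The fitted log2 difference between young and control capsules was -6.29 (SE 0.756).

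ENSCAFG00000015054 was more variable in the same capsules. Control replicates 1 to 5 stood at 76.2, 19.7, 615, 230 and 16.2 CPM, with a mean of 191 ± 252 CPM (SD, n = 5), so the SD exceeded the mean. Young capsules ran from 0.391 to 4.41 CPM, with a median of 1.44 and 2 to 25 fragments per library. Again no young capsule reached the lowest control. The fitted log2 difference was -6.73 (SE 1.17), and -5.58 without control replicate 3. In this comparison 19.6% of the 12589 genes were called lower in young capsules (edgeR, Benjamini-Hochberg adjusted p under 0.05). The order that chose both genes held the 1134 genes called lower with a control mean of at least 5 CPM and no overlap of the groups. For both genes the lack of overlap was thus part of the choice. By that order the next gene had a log2 difference of -5.79 and a control mean of 12.5 CPM, below the 48.1 CPM of ENSCAFG00000005854.

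**Figure D1:**
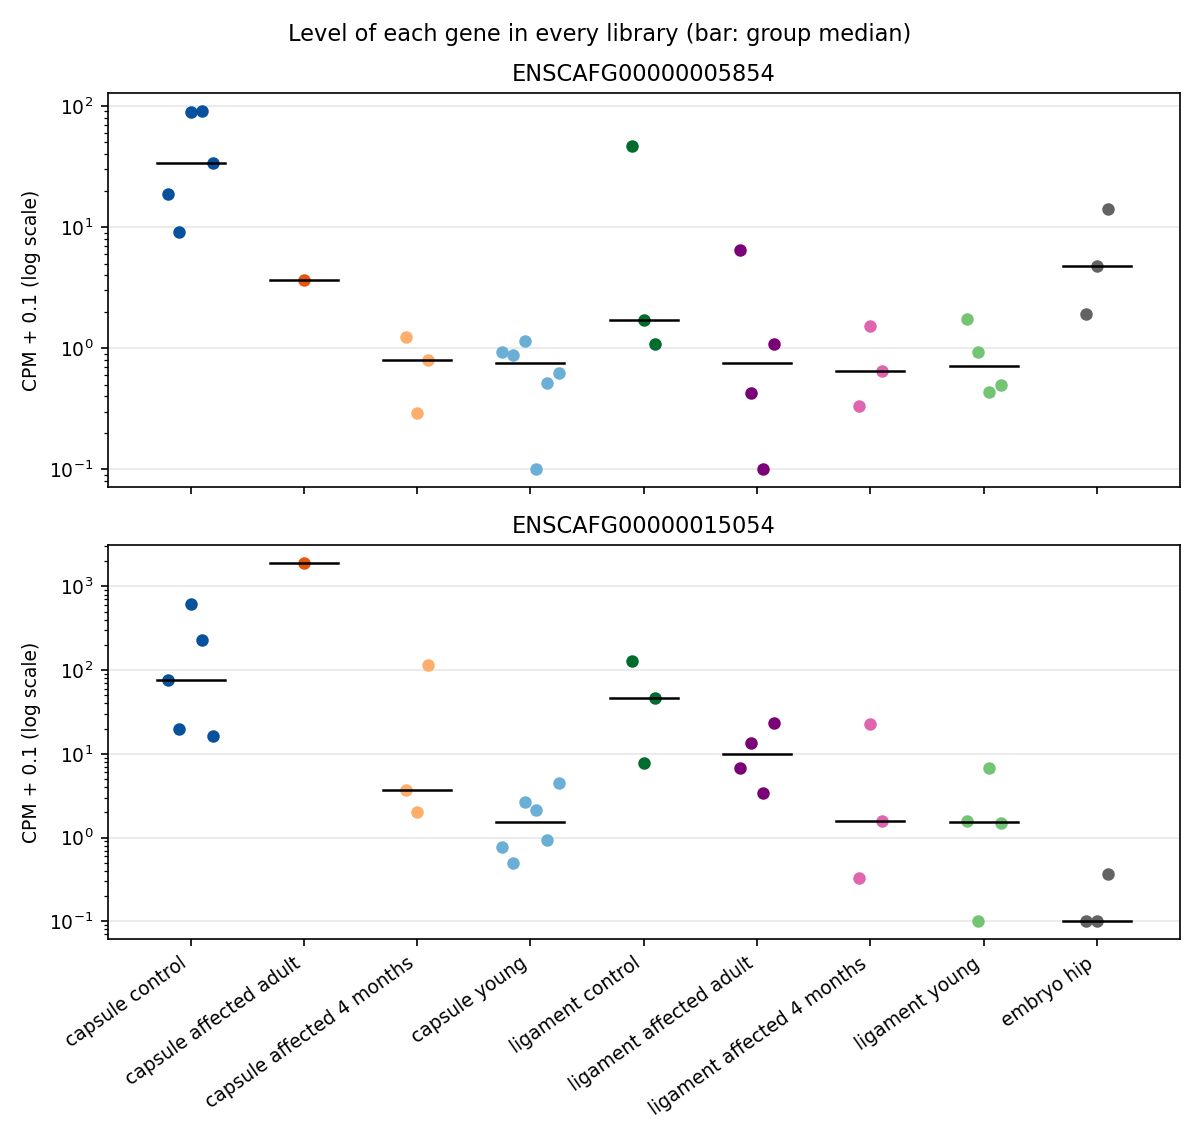
Level of each gene in every library, in CPM plus 0.1 on a log scale, with 1 point per library and a bar at the median of each group; affected groups are split by age. Points of ENSCAFG00000005854 outside control capsules lie mostly near 1 CPM, while ENSCAFG00000015054 spreads from 0 in 2 embryonic hips to 1890 CPM in the adult affected capsule.

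Both genes were spread widely among control capsules. On the log2 CPM scale the range over the 5 controls was 3.26 for ENSCAFG00000005854, and 1.8% of the 12589 genes had a range at least as wide. The range of ENSCAFG00000015054 was 5.21, which 0.23% of genes reached. The median gene had a range of 0.89. Control replicate 3 was the highest library for ENSCAFG00000015054 and stood at 89.1 CPM, next to the 90 CPM of replicate 4, for ENSCAFG00000005854. Control replicate 5 was the third highest for ENSCAFG00000005854 but lowest for ENSCAFG00000015054, so the order of the dogs differed between the genes.

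The affected capsules separated the genes. ENSCAFG00000005854 stood at 3.59 CPM in the adult affected capsule (replicate 1), on 14 fragments, and at 1.14, 0.193 and 0.702 CPM in the capsules of the 3 dogs aged 4 months (replicates 2 to 4), on 6, 1 and 3 fragments. All 4 affected capsules lay below all 5 controls, whose lowest value was 9.05 CPM. Of the 12718 genes in this comparison, 1.2% had every affected library below every control, a share in which this gene was included. The fitted log2 difference was -5.13 (SE 0.919), the third lowest of those genes, and -6.09 without the adult affected capsule. No test is given, since the control libraries were used to choose the gene and a gene chosen for high controls tends to stand above any other group. For both genes, age and disease cannot be told apart in this comparison. All control dogs were adult, and 3 of the 4 affected dogs were aged 4 months.

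For ENSCAFG00000015054 the adult affected capsule held 7384 fragments, or 1890 CPM. This was the highest value of the gene in the series, above the 615 CPM of the highest control. The capsules at 4 months stood at 3.6, 1.93 and 116 CPM, on 19, 10 and 496 fragments. Replicates 2 and 3 were thus below all controls, and replicate 4 was inside their range. In the adult affected capsule the gene ranked 40 among 16277 detected genes by FPKM (the authors' values, scaled for library size and gene length), with 969 FPKM. The range over the 4 affected capsules was 9.68 on the log2 scale, the widest of the 12718 genes tested there, where the median gene had 1.15. The fitted log2 difference between affected and control capsules was 1.42 (SE 1.7), and it was -2.23 without the adult affected capsule. In limma on log2(FPKM + 0.1), with all libraries, it was -1.18. The direction thus depended on 1 library and on the scale. That library had 4034793 fragments, and its 10 most abundant genes held 28% of them, against 24.7% to 30.4% in the other affected capsules. It was the highest affected capsule for 26.3% of genes.

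Levels in ligament come from libraries that did not enter the choice of the genes, although 4 of these dogs also gave a capsule that did. For ENSCAFG00000015054 the control ligaments stood at 128, 7.74 and 46.1 CPM, on 633, 48 and 232 fragments. Young ligaments stood at 1.49, 0, 6.61 and 1.4 CPM, on 9, 0, 39 and 7 fragments. Every young ligament lay below every control, as for 10.8% of genes, and the nearest values were 6.61 and 7.74 CPM. The gene was lower in young ligaments, with a log2 fold change of -4.73 (SE 1.17, edgeR adjusted p = 0.041), and 4.74% of 12701 genes were called lower in that comparison. It passed the filter on low counts through the control ligaments, the group where it was high. Among young ligaments only replicate 3 held more than 9 fragments. The young mean was 2.38 ± 2.91 CPM (SD, n = 4) and the control mean 60.7 ± 61.6 CPM (SD, n = 3). The call was lost without control replicate 1 (log2 -3.57, edgeR adjusted p = 0.12), control replicate 3 (-4.88, 0.081), young replicate 1 (-4.57, 0.11) or young replicate 4 (-4.59, 0.082), and the fold change was -6.08 without young replicate 3. It was also lost with no filter on low counts (-4.72, 0.13) and in limma on log2(FPKM + 0.1) (-4.70, 0.052).

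ENSCAFG00000005854 was low in ligament with 1 exception. Control ligaments stood at 46.4, 1.61 and 0.993 CPM, on 229, 10 and 5 fragments, and young ligaments at 1.65, 0.826, 0.339 and 0.4 CPM, on 2 to 10 fragments. Only control replicate 1 stood apart, and the other 2 controls lay inside the range of the young ligaments. The gene did not pass the filter on low counts in this comparison and was not tested. The log2 ratio of the group means was -4.34, and it was -0.70 without control replicate 1.

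The ligament of control replicate 1 came from the dog that gave capsule control replicate 3. In this dog ENSCAFG00000005854 stood at 89.1 CPM in capsule and 46.4 in ligament, a ratio of 1.92. ENSCAFG00000015054 stood at 615 and 128 CPM, a ratio of 4.79. Both genes were thus high in both tissues of 1 control dog, which was the highest of the 3 control ligaments for each gene. By comparison, this ligament was the highest of the controls for 32.8% of all genes tested, close to an even share. Its total of 4770687 fragments and the 16.9% held by its 10 most abundant genes were within the range of the other libraries.

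**Figure D2:**
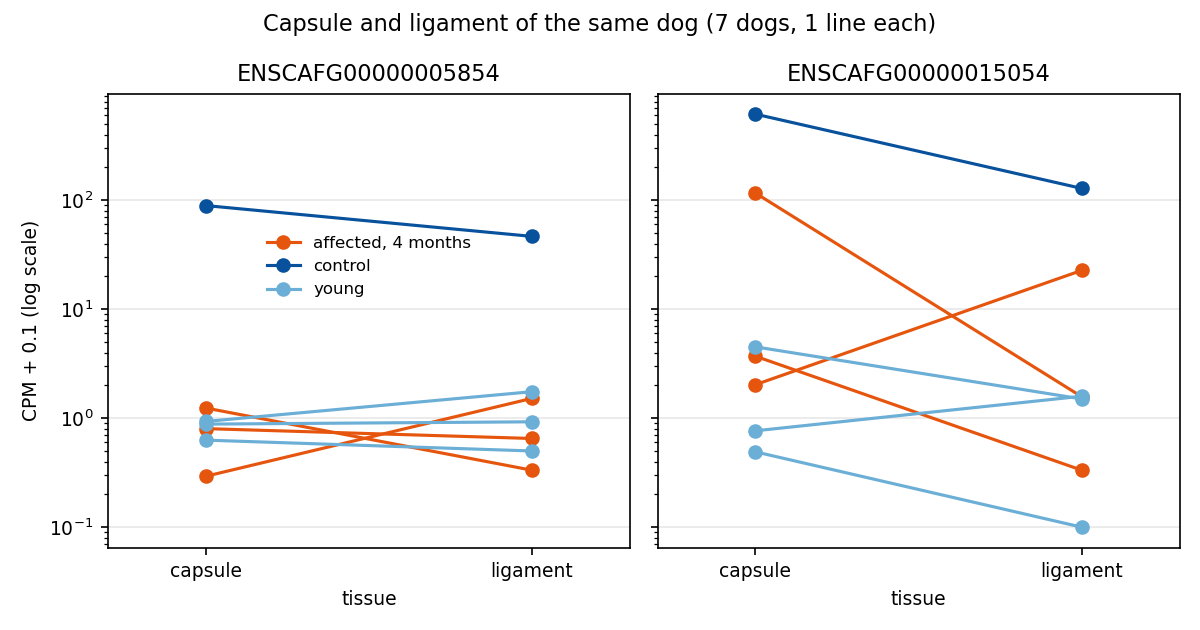
Capsule and ligament of the 7 dogs that gave both, in CPM plus 0.1 on a log scale, with 1 line per dog coloured by group. The line of the control dog is the highest in both tissues for both genes, and the lines of ENSCAFG00000015054 cross among the dogs aged 4 months.

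The remaining 6 pairs showed no common order of the tissues. Over the 7 dogs ENSCAFG00000005854 was higher in capsule in 4 and in ligament in 3, and without the control dog no value exceeded 1.65 CPM. Some of these orders were near ties: 1 dog held 3 fragments in each tissue, and 1 held 4 in capsule and 7 in ligament. ENSCAFG00000015054 was higher in capsule in 5 dogs and in ligament in 2. In 1 of those 5, a young dog, the capsule held 2 fragments and the ligament 0. Among the 3 affected dogs aged 4 months, its capsule and ligament stood at 3.6 and 0.233 CPM, at 1.93 and 22.6 CPM, and at 116 and 1.47 CPM. The capsule was 15.4-fold higher in the first of these dogs and 78.9-fold higher in the last, while the ligament was 11.7-fold higher in the other. With the dog as a block the log2 difference between capsule and ligament was 2.15 (SE 3.21, edgeR adjusted p = 0.84), where 1.31% of 13076 genes were called. It was 5.99 (SE 0.547, edgeR adjusted p = 0.00017) without the dog whose ligament was higher, and -0.98 (edgeR adjusted p = 0.76) without the dog at 116 CPM in capsule, so the outcome depended on which dog was left out. ENSCAFG00000005854, with at most 6 fragments in any of these 6 libraries, was not tested.

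The case and control comparison in ligament used libraries outside the choice of the genes. ENSCAFG00000015054 ran from 0.233 to 23.2 CPM in the 7 affected ligaments, with a median of 6.7, against 7.74, 46.1 and 128 CPM in controls. The ranges overlapped, since 3 affected ligaments exceeded the lowest control. The log2 difference was -2.55 (SE 0.881) and did not pass (unadjusted p = 0.013, edgeR adjusted p = 0.6). None of the 12937 genes passed in edgeR (0.0%). Before adjustment 1058 lay under 0.05, and with DESeq2 11 genes passed. Between adult affected ligaments, at 6.7, 13.2, 3.26 and 23.2 CPM, and the adult controls the log2 difference was -2.33 (SE 0.805, edgeR adjusted p = 0.25). There too none of 12505 genes passed in edgeR (0.0%). Before adjustment 2374 lay under 0.05, and with DESeq2 61 genes passed. Without control replicate 1 the differences were -1.40 for all affected and -1.17 for adult affected ligaments.

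For ENSCAFG00000005854 the affected ligaments ran from 0 to 6.31 CPM, with a median of 0.551. The highest was replicate 1, an adult, with 32 fragments, and the other 6 held at most 6 fragments. The gene passed the filter in neither ligament comparison of affected and control dogs. The log2 ratio of group means was -3.54 for all affected and -3.10 for adult affected ligaments. These ratios turned to 0.11 and 0.55 without control replicate 1, so they rested on that library.

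Within affected ligaments, age was examined at 4 months against adult. ENSCAFG00000015054 stood at 0.233, 22.6 and 1.47 CPM at 4 months, against 3.26 to 23.2 CPM in adults. The log2 difference was -0.57 (SE 1.19, edgeR adjusted p = 0.78), where 14.6% of 12619 genes were called in either direction. Replicate 6, at 22.6 CPM, lay near the highest adult and set this value: without it the log2 difference was -3.68 (edgeR adjusted p = 0.064). Without adult replicate 4, the highest at 23.2 CPM, it was 0.05. Dog identifiers at 4 months begin alike, as does that of the young dog of capsule and ligament replicate 2. Those of the adult affected dogs begin otherwise, and the labels do not explain this. Whatever the shared beginning marks cannot be told apart from age among affected ligaments. ENSCAFG00000005854 held 1, 6 and 3 fragments at 4 months and was not tested. The log2 ratio of its means was -1.37, and 0.75 without adult replicate 1.

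In embryonic hip the genes went opposite ways. ENSCAFG00000005854 stood at 1.83, 4.65 and 13.9 CPM, on 12, 35 and 104 fragments. All 3 embryos lay above all 4 young ligaments, whose highest value was 1.65 CPM, as for 27.8% of genes. The gene was higher in embryonic hip, with a log2 fold change of 3.01 (SE 0.731, edgeR adjusted p = 0.0074), in a comparison where 23.0% of 13462 genes were called higher. It passed the filter on low counts only through the embryos, since young ligaments held 2 to 10 fragments. With no filter the value was 2.99 (edgeR adjusted p = 0.008). With 1 library left out the log2 fold change ran from 1.92 to 3.57. The lowest value came without embryo replicate 3, where the adjusted p was 0.04. Embryos also lay above all 6 young capsules, whose highest value was 1.04 CPM, as did 21.7% of 13585 genes. That fitted difference was 3.43 (SE 0.644), or 2.34 without embryo replicate 3, and is given without a test because young capsules were used to choose the gene. The embryonic range of 1.83 to 13.9 CPM overlapped the lowest control capsule, at 9.05 CPM.

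ENSCAFG00000015054 was at the limit of detection in embryos, with 0, 0 and 2 fragments. The libraries with 0 allow up to 0.458 and 0.399 CPM. Against 55 fragments over the 4 young ligaments, the pooled ratio was 23.4 in favour of young ligament (95% exact binomial interval 6.17 to 198, counting error only). The gene did not pass the filter in that comparison. Of the 55 fragments, 39 came from young ligament replicate 3. The log2 ratio of the group means was -4.74, and -3.44 without that library. The 6 young capsules held 54 fragments, and the lowest stood at 0.391 CPM on 2 fragments. Between embryonic hip and young capsule the fitted log2 difference was -4.04 (SE 1.07), without a test because young capsules were used to choose the gene. The pooled ratio was 19.5 in favour of young capsule (95% exact binomial interval 5.15 to 165, counting error only). Each embryonic value was below each young capsule, but the limits of the libraries at 0 exceed 0.391 CPM. Separation of every single library was thus not resolved at this depth. One young ligament, replicate 2, also had 0 fragments and allows up to 0.354 CPM.

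**Figure D3:**
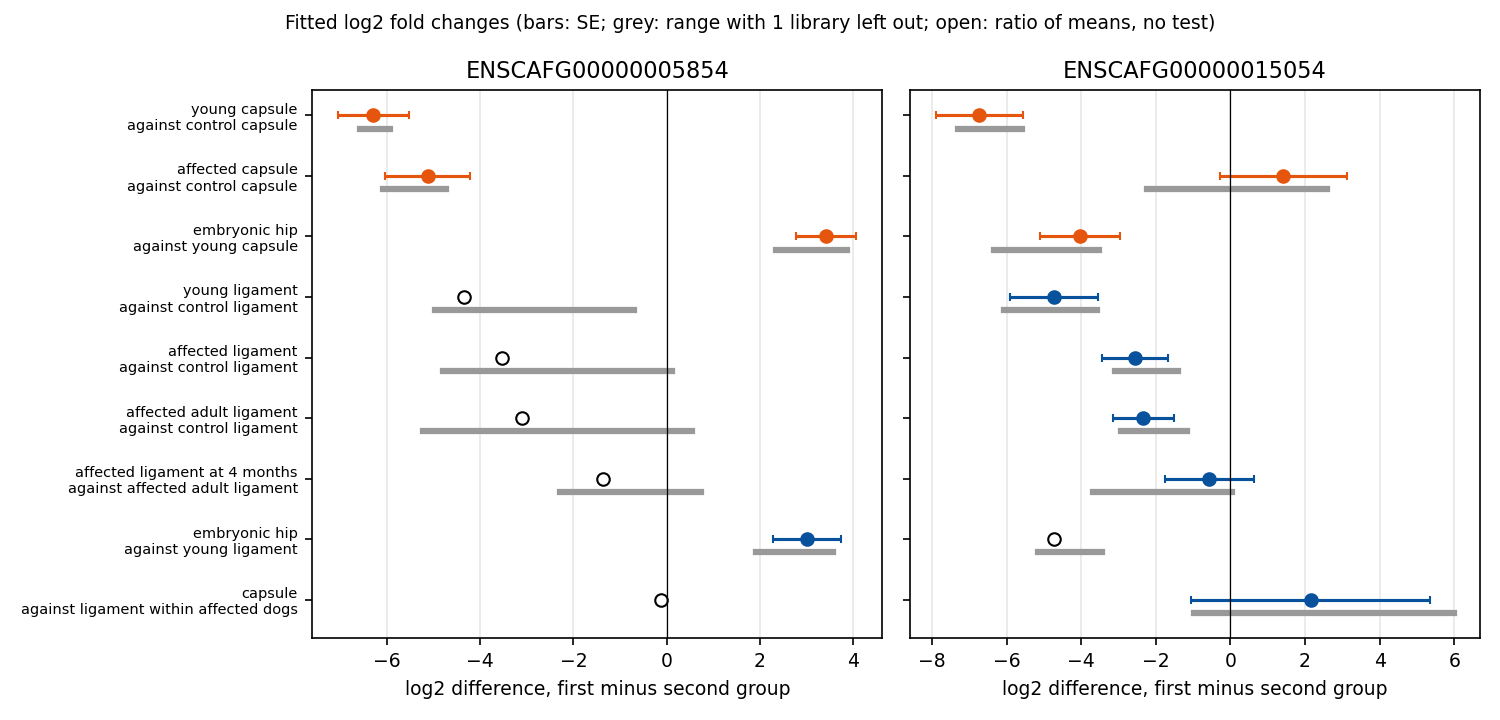
Log2 differences of each gene in 9 comparisons, first group minus second, with points for fitted values and bars for their SE. Orange points are comparisons that share libraries with the choice of the genes, blue points were tested, open circles are ratios of group means with no test, and grey bars span the values with 1 library (or 1 dog in the paired comparison) left out. Omissions after which a gene had no value are not in the bars.

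Ordered by group median, ENSCAFG00000005854 was highest in control capsules (33.6 CPM), followed by embryonic hip (4.65), control ligament (1.61), affected capsule (0.919), young capsule (0.656), young ligament (0.613) and affected ligament (0.551). The ranges of each pair of neighbours in this order overlapped. Of the 27 libraries outside control capsules, 2 reached the lowest control capsule, namely ligament control replicate 1 and embryo replicate 3. This gene was thus near its floor in most of the series.

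Medians of ENSCAFG00000015054 ran from 76.2 CPM in control capsules through 59.8 in affected capsules, 46.1 in control ligaments and 6.7 in affected ligaments to 1.44 in both young tissues and 0 in embryonic hip. The ranges of neighbours overlapped, except for young capsule and embryonic hip, where the separation was within the limits of 0 fragments. The affected capsule median of 59.8 CPM fell between libraries at 3.6 and 116 CPM. Split by age, affected capsules stood at 1890 CPM in the adult and had a median of 3.6 CPM at 4 months. The latter was below the medians of control ligament and of adult affected ligament (9.97 CPM). Outside control capsules, 6 libraries reached the lowest control capsule at 16.2 CPM. They were affected capsules 1 and 4, affected ligaments 4 and 6 and control ligaments 1 and 3, and no young or embryonic library was among them.

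Per length, on the authors' FPKM scale, ENSCAFG00000015054 was the more abundant gene in 27 of 32 libraries. ENSCAFG00000005854 was higher in the 3 embryonic hips, in young ligament replicate 2 and, by a ratio of 0.994, in control capsule replicate 5. Where both were detected, in 27 libraries, the ratio of ENSCAFG00000015054 to ENSCAFG00000005854 ran from 0.0388 in embryo replicate 3 to 1060 in the adult affected capsule, with a median of 6.44. The balance of the genes thus differed widely between libraries. In control capsules the ratio lay between 0.994 and 14.

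The conversion from scaled fragments to FPKM differed between the genes. For ENSCAFG00000005854 the ratio of scaled fragments to FPKM was 20.66 in all 30 libraries with fragments. For ENSCAFG00000015054 it ran from 7.71 to 10.25 and was within 1% of the maximum in 19 of 29 libraries. Why the ratio varied for this gene was not tested. The lowest ratio was in young capsule replicate 4, on 9 fragments.

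**Figure D4:**
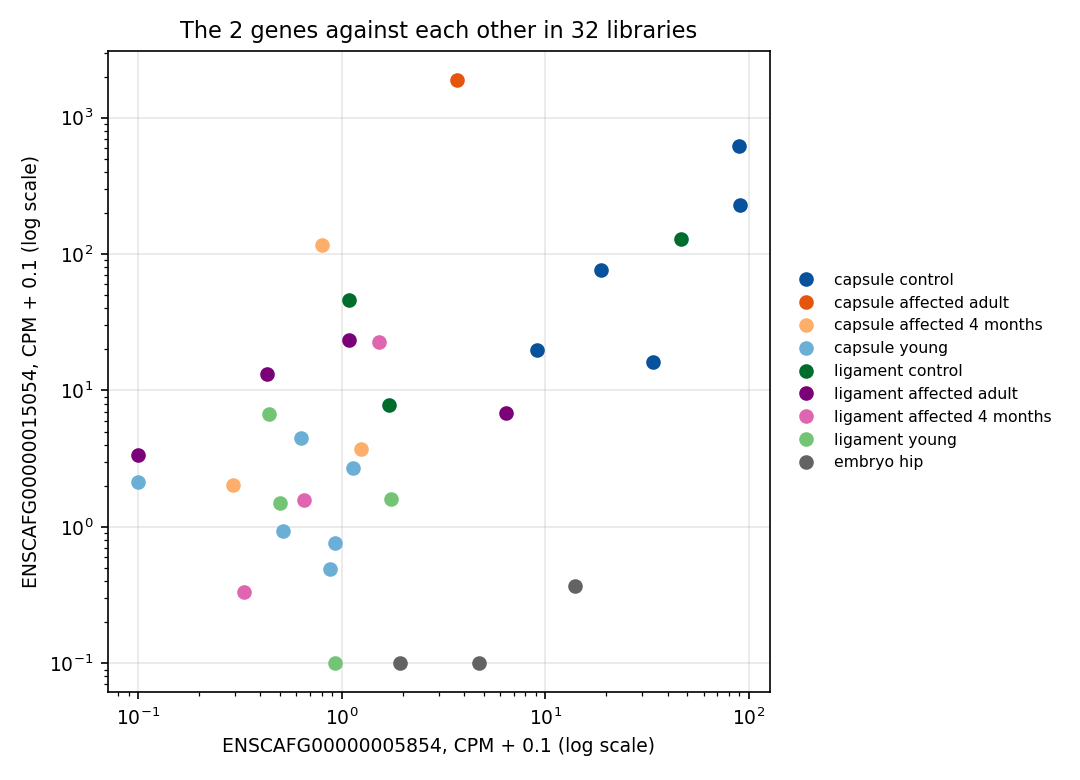
ENSCAFG00000015054 against ENSCAFG00000005854 in 32 libraries, both in CPM plus 0.1 on log scales, with points coloured by group. Control capsules and the ligament of control replicate 1 lie at the upper right, embryonic hips at the lower right of the young libraries, and the adult affected capsule at 1890 CPM at the top.

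Across the 32 libraries, which come from 25 dogs and share group differences, the log2 CPM of the genes correlated at Pearson r = 0.53. Among 13964 other genes with a mean of at least 1 CPM, ENSCAFG00000015054 ranked 188 in likeness to ENSCAFG00000005854. In the other direction the rank was 753. With group means subtracted the value was 0.40 (31 libraries). The lists of the 100 genes most like each of them shared 11 genes.

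The genes most like ENSCAFG00000005854 were ENSCAFG00000010242 (r = 0.85) and ENSCAFG00000010623 (r = 0.83). In control capsules ENSCAFG00000010242 ran from 10.4 to 29.8 CPM, in young capsules from 0 to 0.782 and in embryonic hip from 0.664 to 8.12. ENSCAFG00000010623 ran from 7.48 to 17.1 CPM in control capsules, from 0 to 0.518 in young capsules and from 9 to 15.4 in embryonic hip. It thus shared the low values in young capsules and the higher values in embryos. Its fitted log2 difference between young and control capsules was -5.79, the value of the next gene in the order of choice. In affected capsules of dogs aged 4 months ENSCAFG00000010242 and ENSCAFG00000010623 stayed low, reaching 3.98 and 1.14 CPM. By Spearman correlation they ranked 2 and 3, and with group means subtracted 40 and 9.

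Nearest to ENSCAFG00000015054 were ENSCAFG00000002519 (r = 0.89) and ENSCAFG00000016363 (r = 0.86). Both were detected at every age, over a narrower range. ENSCAFG00000002519 ran from 49 to 117 CPM in control capsules and from 15.7 to 19.7 in young capsules, and stood at 242 CPM in the adult affected capsule. ENSCAFG00000016363 ran from 161 to 702 CPM in control capsules and from 60.8 to 109 in young capsules, and stood at 570 CPM in the adult affected capsule. The adult affected capsule was the highest library of ENSCAFG00000002519 but not of ENSCAFG00000016363. By Spearman correlation they ranked 10 and 13, and with group means subtracted 23 and 7. These correlations are descriptions over the same 32 libraries, in which the young and control capsules that chose the genes take part.

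**Figure D5:**
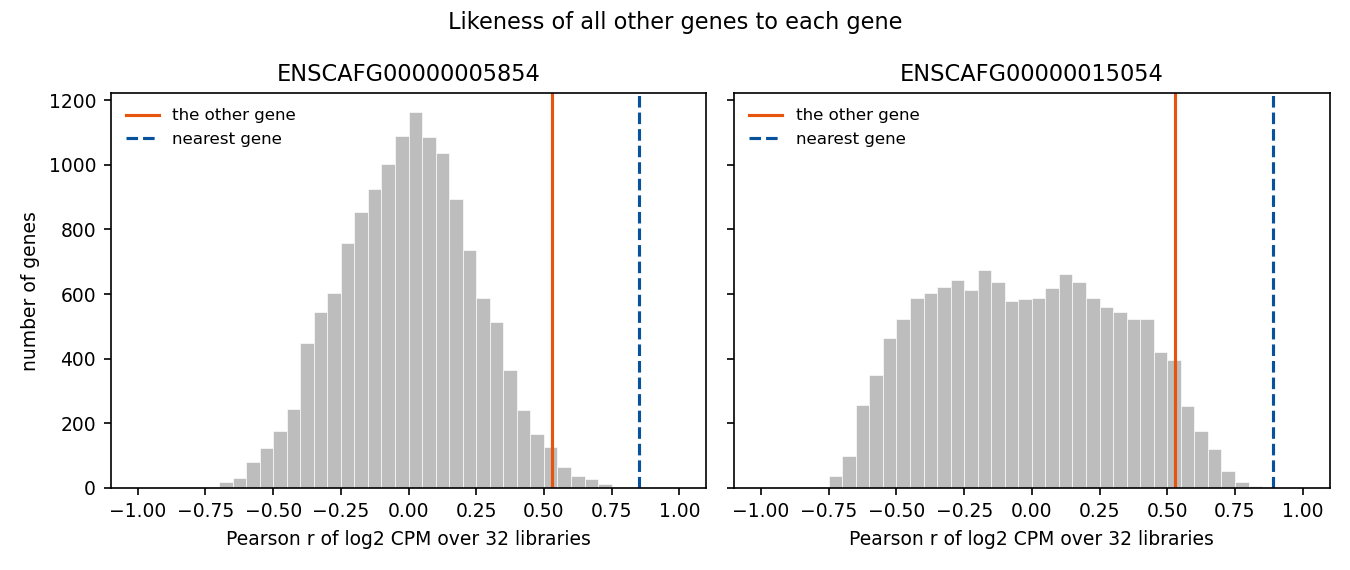
Number of genes by Pearson r of log2 CPM with each gene over 32 libraries. The solid line marks the other of the 2 genes at r = 0.53 and the dashed line the nearest gene, at 0.85 for ENSCAFG00000005854 and 0.89 for ENSCAFG00000015054.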

How the data were processed

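Ribosomal RNA-depleted, strand-specific libraries of hip tissue were sequenced, per the labels' protocols. The submitters' processing notes name canFam3, Cuffdiff 2.2.1, TopHat2 2.0.13, Bowtie2 2.2 and cutadapt 1.8. No annotation release or strand setting of the counting is stated in them. The deposited tables give an estimated count of fragments per gene and library, per the file headers; 0.332% of values were not whole (tolerance 1e-06), none of them of the 2 genes, and counts were rounded. A scaled signal, equal to fragments over a constant for each library, and FPKM values were also deposited. The capsule and ligament tables matched the table of all samples, with 0 differing counts over 19 libraries. Groups were taken from the labels.

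All genes were tested with edgeR 4.0.16 in R 4.3.3 (filterByExpr, TMM, robust quasi-likelihood F test, Benjamini-Hochberg over all genes tested, threshold 0.05) on the groups compared. Fold change SEs come from the F statistic. CPM values in the text use TMM factors over all 32 libraries. Both genes and the lists were chosen with earlier results of these data known, so 3 comparisons that share libraries with that choice are described without p-values and 6 others are tested. The genes of like pattern are the 2 highest per gene by Pearson r of log2 CPM (prior count 2; genes with a mean of at least 1 CPM). A library with 0 fragments is given an upper limit of 3 fragments. Dog identifiers show a different dog for each replicate of a group, and counts of 2 replicates always differed by more than sampling noise (lowest chi-square per gene 4.24 over 64 pairs). In counts simulated for the young and control ligament comparison (12701 genes), edgeR recovered 99 of 100 genes changed by 5 on the log2 scale and 78 of 100 changed by 2. The changed genes were drawn at random from the more abundant genes that passed the filter. ENSCAFG00000005854 did not pass it there. Only 0.268% of genes had a log2 range in control ligaments as wide as that of ENSCAFG00000015054. The recovery rates thus do not describe these 2 genes. Alternatives were RLE scaling, no filter, DESeq2 1.42.0, limma 3.58.1 on log2(FPKM + 0.1) and log2(FPKM + 1), a replicate block, and leaving out each library. No sequences, coordinates or gene names were used.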

Additional observations from a re-analysis of the deposited data

Results flagged for a closer look

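Single libraries that stood far from the rest of their group, by Dixon's criterion at the 95% level, were found in 2 of 10 checks (5 groups of 4 to 7 libraries, 2 genes). Chance gives about 1 in 20 for values with a normal spread, which these skewed CPM values need not have. On the log2 CPM scale, tried after seeing the data, neither library passed: the gaps were 0.416 and 0.458 of the range, against critical values of 0.829 (n = 4) and 0.568 (n = 7). The adult affected capsule (replicate 1) stood at 1890 CPM for ENSCAFG00000015054, where the next affected capsule had 116 CPM; the gap was 0.94 of the range. It is also the only adult among the affected capsules, so age and this library cannot be told apart. For ENSCAFG00000005854 the ligament of affected replicate 1, an adult, stood at 6.31 CPM on 32 fragments, against 1.42 CPM in the next; the gap was 0.774 of the range. In that library ENSCAFG00000015054 was at 6.7 CPM, the median of the affected ligaments.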

How the results depend on the processing

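Of the 2 tests that passed, the higher level of ENSCAFG00000005854 in embryonic hip than in young ligament kept its call with every library left out (log2 1.92 to 3.57) but not with a replicate block, while the lower level of ENSCAFG00000015054 in young ligament did not (-6.08 to -3.57). The latter missed the threshold with no filter (-4.72, edgeR adjusted p = 0.13), in limma on log2(FPKM + 0.1) (-4.70, adjusted p = 0.052) and without 4 of the 7 libraries in turn. For ENSCAFG00000005854 in the same ligaments the log2 difference was -2.19 and -1.20 in limma with 0.1 and 1 added (adjusted p = 0.28 and 0.33), -4.97 to -0.70 with 1 library left out, and -4.83 (edgeR adjusted p = 0.041) without control replicate 3, where it passed the filter. For affected against control ligament the log2 difference of ENSCAFG00000005854 was -1.09 in limma with 1 added and -4.80 to 0.11 with 1 library left out. For adult affected ligament it was -5.22 to 0.55. Between 4 months and adult the ranges were -2.28 to 0.75 for ENSCAFG00000005854 and -3.68 to 0.05 for ENSCAFG00000015054. For ENSCAFG00000015054, embryonic hip against young ligament gave -4.68 in DESeq2 (adjusted p = 0.012) and -2.35 and -0.83 in limma with 0.1 and 1 added. Its difference between capsule and ligament of the same dogs ran from -0.98 to 5.99. The cause of these changes was not tested.

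Among the differences that are only described, young against control capsule gave -5.22 for ENSCAFG00000005854 in limma with 0.1 added. Affected against control capsule for ENSCAFG00000015054 gave -1.18 in limma with 0.1 added and -2.23 to 2.58 with 1 library left out. Embryonic hip against young capsule gave 2.34 to 3.87 for ENSCAFG00000005854, and for ENSCAFG00000015054 -2.66 in limma with 0.1 added and -6.35 to -3.52 with 1 library left out, where -6.35 has 0 embryonic fragments and depends on the prior count. The correlation of the genes fell from 0.53 to 0.40 by Spearman, with group means subtracted, or without capsule control 3, ligament control 1 and capsule affected 1; the last 2 were chosen after seeing the data.

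By the dog identifiers, replicates with the same number in these comparisons came from different dogs. The correlation of same-numbered deviations reached below 0 in all 6 comparisons, which alone cannot exclude pairing. For affected against control ligament it also reached 0.51, and 2 of 3 shared numbers correlated best with their own number. With a replicate block, which keeps only shared numbers, the log2 difference of ENSCAFG00000005854 was -2.84 for affected against control ligament (edgeR adjusted p = 0.035; the same for adult affected, since the block keeps only those) and 2.45 (adjusted p = 0.058) for embryonic hip against young ligament. For ENSCAFG00000015054 the block gave -1.64 for affected against control capsule, a setting chosen after seeing the data.

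Counts of genes called for young against control ligament ran from 617 to 1984 around 1310, for 4 months against adult from 549 to 2408 around 1841, and for capsule against ligament from 106 to 345 around 171. For adult affected against control ligament 0 genes became 1850 without control replicate 3 and 200 with the block. Depth limits both genes in young and embryonic libraries, where levels rest on 0 to 104 fragments.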
